A study of Homo sapiens with 12 samples.

Results

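The comparison described here is C646 against DMSO after 12 h in HCT116 cells, an established human colon cancer line. HCT116 cells received either 10 uM C646 or the vehicle, 0.05% DMSO. RNA amplified and labelled from total RNA was hybridized to Illumina HumanHT-12 v4 BeadChips. The beads of these arrays carry gene probes, and their brightness gives a signal for each gene row. The members are the rows whose signal stood above background in at least 1 of the 2 columns, which kept 16803 of 34687 rows. Each column is the authors' average of 2 arrays from separate cultures, so a difference has no replicate check here and sizes alone are given. The other HCT116 columns, used for setting these values beside, are 10 uM ICG-001 at 12 h, and DMSO, C646 and ICG-001 at 96 h, with the same doses; the PANC1 columns come from a human pancreatic adenocarcinoma line treated in the same way. No single clone, transgene or animal is involved, and each line stands for 1 tumor.

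CBP and p300 are closely related coactivators that transcription factors bring to enhancers and promoters, where they acetylate histone tails and other proteins. C646 is a small molecule that competes with acetyl coenzyme A for the catalytic site of both enzymes, whereas ICG-001 binds CBP and is described as blocking its contact with β-catenin, the effector of WNT signaling that works through TCF/LEF factors such as TCF7L2. In colon cancer cells the WNT pathway is usually switched on, which is why these coactivators have been of interest there. The study asked whether gene expression responds differently when CBP alone or CBP together with p300 is inhibited, and the columns described here are those for C646, which acts on both.

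The labelled cell type was checked against its markers first. Of 13 rows for 12 colon epithelial markers, 8 were above the limit with C646 or DMSO, led by KRT19 with a signal of 8719 in DMSO and 8481 in C646 and by EPCAM with 7630 and 6553. VIL1, CDX1, LGALS4, CDH17 and CEACAM5, which belong to the differentiated intestinal lining, were at or under the limit in both columns. None of 8 immune marker rows and 1 of 8 fibroblast marker rows (COL1A1, 198 in DMSO and 183 in C646) stood above the limit in DMSO. The limit of detection was a signal of 144 in both columns, with 15425 rows above it in DMSO and 15568 in C646. At that limit, TAF1 was just outside (143 in DMSO and 144 in C646) and LOC646574 just inside (144 in DMSO and 137 in C646).

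After 12 h of C646, 441 rows were at least 1.5-fold higher and 260 at least 1.5-fold lower than in DMSO, which is 2.62% and 1.55% of the rows tested and 4.17% together. "Higher" and "lower" are used below for rows past 1.5-fold, which is 0.58 on the log2 scale. The median log2 ratio over all rows tested was -0.01. Among the 17884 rows at background in both columns the log2 ratios had an SD of 0.07, and the largest was 0.29 in size. Picking rows for low signal in both columns itself bounds their ratios. This SD thus describes scatter between these 2 columns for dim rows only, and not between cultures. The rows tested had an SD of 0.27, changes with the drug included. The largest rise was 4.98-fold and the largest fall 2.96-fold. Rises went further than falls, with 135 rows higher at least 2-fold and 25 lower at least 2-fold. The median rise was 1.74-fold and the median fall 1.62-fold. In the same line, time in DMSO alone (96 h against 12 h) put 519 of 16485 rows past 1.5-fold, which is 3.15%; the 96 h cultures were also started sparser and passaged, so time and handling cannot be told apart there. Of the 701 changed rows, 13 were at or under the limit in 1 column, so their fold is a lower bound.

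**Figure D1:**
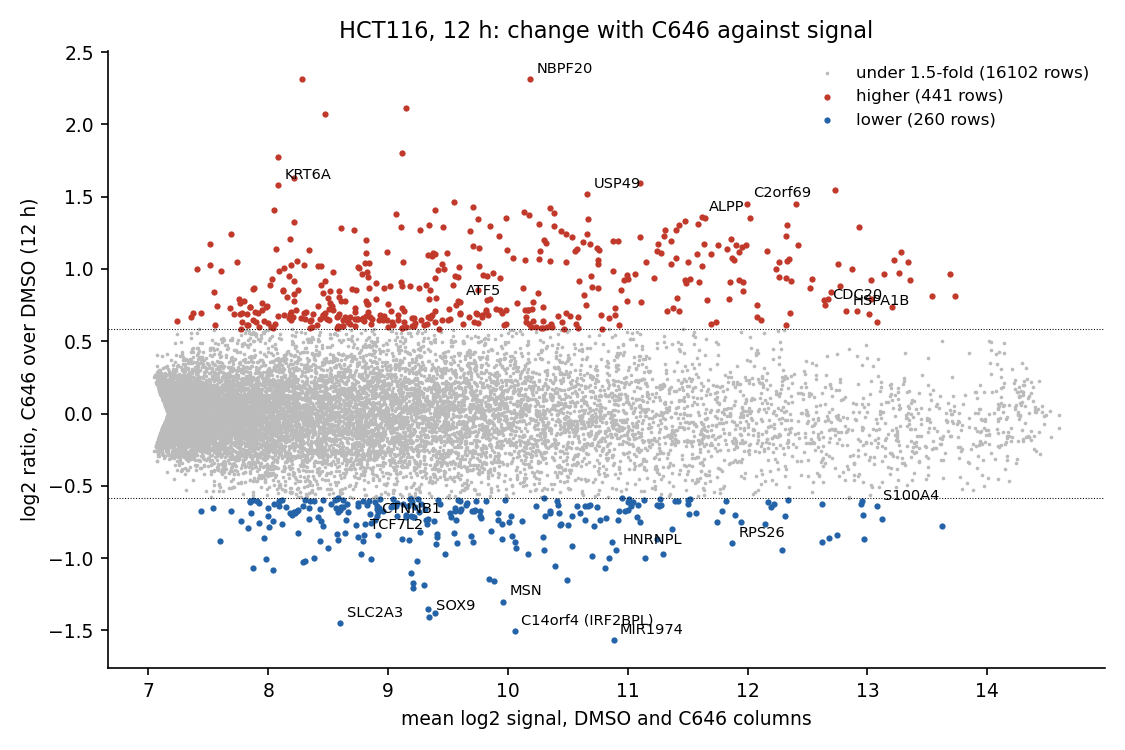
Each dot is 1 of 16803 gene rows, with the mean log2 signal of the C646 and DMSO columns across and the log2 ratio of C646 over DMSO at 12 h upward. Red marks the 441 rows at least 1.5-fold higher and blue the 260 at least 1.5-fold lower (dotted lines). All 701 changed rows were among the 12601 rows above a stricter limit at 5 SD. Background is left in the signals, so dimmer rows could hardly reach 1.5-fold whether or not their genes changed.

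Transcription factors were among the 15 largest falls with a RefSeq name. No row of the lists of intestinal differentiation (7 rows) and stem cell markers (8 rows) passed 1.5-fold. Over all rows 4.17% did, so lists this short say little either way. SOX9, a factor of intestinal crypt progenitors, had a signal of 1058 in DMSO and 399 in C646 at 12 h, 722 in ICG-001 at 12 h, 1522 in DMSO at 96 h, 932 in C646 at 96 h and 1351 in ICG-001 at 96 h. The C646 column at 12 h was the lowest of the 6, 2.65-fold under its own control (log2 ratio -1.41). In RNA from whole cultures, fewer cells expressing a gene and less RNA per cell cannot be told apart. IRF2BPL (the row named C14orf4), a nuclear zinc finger protein, fell from 1793 in DMSO to 631 in C646 (log2 ratio -1.51), against 1310 in ICG-001. It was again lower with C646 at 96 h, 979 against 2129. In PANC1 its signal was 1427 in DMSO and 1491 in C646. EHF, an ETS factor of epithelia, was at 383 in DMSO and 180 in C646. SOX4, chosen after its values were seen, was at 3518 in DMSO, 1792 in C646 and 1742 in ICG-001.

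HMGA1, an architectural chromatin protein chosen after its values were seen, was at 2336 in DMSO and 1182 in C646, and at 2279 and 705 in PANC1. H2AX (the row H2AFX), the histone variant phosphorylated at DNA breaks, fell from 951 to 417 in HCT116 and from 1260 to 474 in PANC1. With DMSO for 96 h its HCT116 signal was already 527.

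Immediate early and growth factor genes were mixed. EGR1, a zinc finger factor switched on within minutes of growth factor signaling, was at 1361 in DMSO, 616 in C646 and 1738 in ICG-001 at 12 h. JUNB and IER5 were also lower (log2 ratios -0.79 and -0.59) and SRF, which drives many immediate early promoters, was higher (0.79), so that 3 of 25 rows were lower and 1 higher, against 1.55% and 2.62% of all rows. JUN was at 467 in DMSO and 403 in C646, and FOSL1 had a log2 ratio of -0.14, both under 1.5-fold. Over the 25 immediate early rows the median log2 ratio was -0.05. ERK feedback genes, which the MAP kinase ERK induces and which then restrain it, had the lower median of -0.25, and 12 of 13 rows were below 0, as were 8588 of the 16803 rows tested. EPHA2 (472 in DMSO and 235 in C646) and the phosphatase DUSP6 (2530 and 1654) passed 1.5-fold, while SPRY4 was at -0.55 and SPRED2 at 0.15, both chosen after their values were seen. EREG, a ligand of the EGF receptor, was at 906 in DMSO and 507 in C646. It was the only one of 9 rows of receptors and ligands past 1.5-fold, against 4.17% of all rows.

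**Figure D2:**
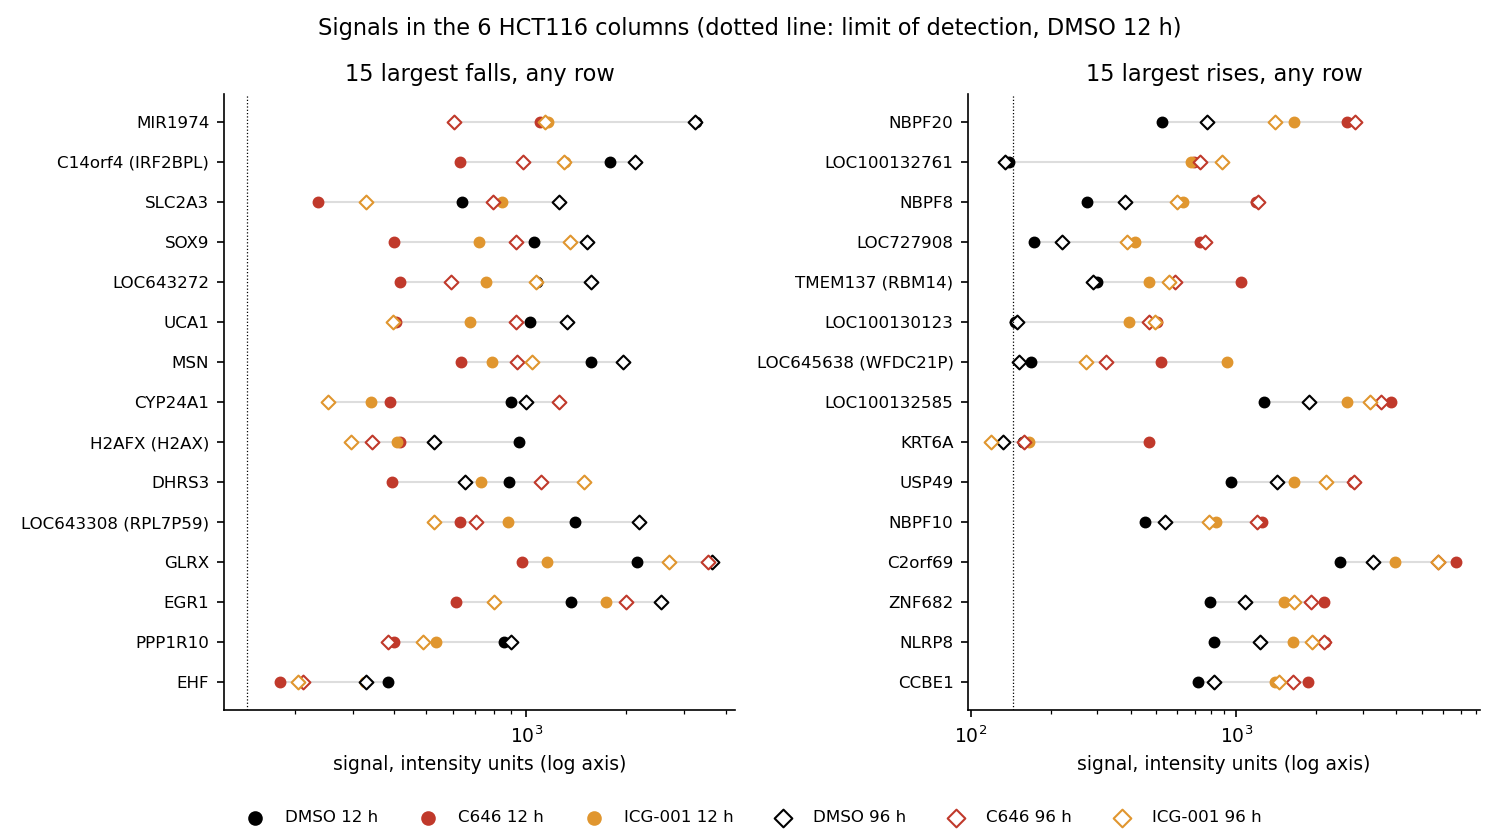
Signals (log axis) in the 6 HCT116 columns for the 15 rows with the largest falls and the 15 with the largest rises at 12 h of C646, named as on the array with the current symbol in parentheses. Filled symbols are 12 h and open diamonds 96 h, with DMSO black, C646 red and ICG-001 orange. SOX9 and C14orf4 are lowest in the C646 12 h column, KRT6A is high in that column alone, and most of the large rises are high in all 4 drug columns.

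The machinery that C646 is aimed at changed little at the RNA level. CREBBP, which encodes CBP, was at 502 in DMSO and 493 in C646, and EP300, which encodes p300, at 193 and 164. None of 11 rows of other histone acetyltransferases, 16 of histone deacetylases, 16 of bromodomain and P-TEFb proteins and 21 of polycomb proteins and demethylases passed 1.5-fold. Over all rows 4.17% did, and the medians of these lists ran from -0.08 to 0.00. In the list of β-catenin and its partners, 2 of 13 rows were lower and none higher, against 1.55% and 2.62% of all rows, with a median of -0.12. The lower rows were CTNNB1 and TCF7L2. CTNNB1, which encodes β-catenin, was at 611 in DMSO, 367 in C646 and 400 in ICG-001 at 12 h, and at 547, 354 and 354 at 96 h. Both drug columns lay under DMSO at both times. TCF7L2 was also under DMSO in all drug columns, but with ICG-001 below C646, at 596 in DMSO, 333 in C646 and 271 in ICG-001 at 12 h and 800, 410 and 317 at 96 h. In PANC1, where CTNNB1 was dimmer, its signal was 223 in DMSO and 229 in C646. GSK3B, a kinase of the complex that destroys β-catenin, chosen after its value was seen, had the highest log2 ratio of the 13 rows, 0.52.

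WNT target genes did not move together. Of 19 rows, SOX9 and S100A4 were lower and none was higher (1.55% and 2.62% of all rows), and the median was -0.14. S100A4, a calcium-binding protein linked to cell motility, was at 10780 in DMSO and 6922 in C646. AXIN2, the feedback inhibitor most often used as a readout of the pathway, was at 766 in DMSO and 827 in C646, but at 249 in ICG-001. MYC was at 3267 in DMSO and 3623 in C646, CCND1 (cyclin D1) at 4164 and 5857, and BIRC5 (survivin) at 808 and 883, all under 1.5-fold. POU5F1 was under the limit in both columns. With ICG-001 the log2 ratios of CCND1 and AXIN2 over the same DMSO column were 0.99 and -1.62.

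The rows named next were on no list and were picked after their values were seen because they fell, so they do not stand for a class of genes. None of the 4 chromatin lists above had a row past 1.5-fold. MTA1 and MTA2, subunits of the NuRD deacetylase complex, were at 1436 and 1337 in DMSO and 857 and 732 in C646. CITED2, a small protein that binds the same domain of CBP and p300 as several transcription factors do, was at 943 and 575. NFIX was at 923 in DMSO and 494 in C646, and at 2443 and 1125 in PANC1. STAT3, a cytokine-activated factor, was at 434 and 286, and NOTCH3, a receptor, at 546 and 359. PPP1R10, which anchors a phosphatase at chromatin, was by contrast named by the rule for the largest changes, at 856 in DMSO and 398 in C646, with 900 and 382 at 96 h.

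Other named falls were spread over several functions. MSN (moesin, which ties actin to the membrane) was at 1566 in DMSO and 635 in C646, at 1964 and 937 at 96 h, and at 3536 and 1542 in PANC1. SLC2A3, the glucose transporter GLUT3, was at 642 in DMSO, 235 in C646 and 847 in ICG-001. It stood with PKM2, GPI and ENO2 as 4 of 19 glycolysis rows that were lower (log2 ratios -1.45, -0.71, -0.60 and -0.59), against 1.55% of all rows, none being higher. The list's median was -0.14. CYP24A1, which breaks down active vitamin D, was at 897 in DMSO, 389 in C646 and 341 in ICG-001. UCA1, a long noncoding RNA, was at 1030 and 403, and GLRX, a glutaredoxin, at 2152 and 969. HYOU1, a chaperone of the endoplasmic reticulum, was at 614 and 313 and at 1154 and 445 in PANC1, although the 17 chaperone rows had a median of 0.19 and CRELD2 was higher (0.62). BCL2L1, which encodes the survival protein BCL-X, was at 1894 in DMSO and 1109 in C646. The row with the largest fall of all was MIR1974, at 3247 in DMSO, 1097 in C646 and 1161 in ICG-001, and at 3241, 604 and 1136 at 96 h. That row had no match in the current RefSeq table and was the only one of 79 microRNA rows past 1.5-fold, against 4.17% of all rows.

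Nuclear genes of oxidative phosphorylation differed between complexes. For complex IV, cytochrome c oxidase, 10 of 11 rows had a log2 ratio below 0 with a median of -0.29, and for complex V, the ATP synthase, 14 of 15 with a median of -0.26, against 8588 of 16803 rows below 0 overall. For complexes II and III, 7 of 13 rows were below 0 and 6 above, with a median of -0.02 and none past 1.5-fold (4.17% of all rows). ATP5D passed 1.5-fold (3309 in DMSO and 2181 in C646), as did NDUFA7 and NDUFA3 of complex I, where 25 of 35 rows were below 0 with a median of -0.10. The mitochondrial ribosome, with 77 rows, had none past 1.5-fold, against 4.17% of all rows, and a median of 0.03. The cytosolic ribosome, with 85 rows, had a median of -0.05, with RPS26 lower (5104 in DMSO and 2741 in C646), RPS27L lower and RPL7L1 higher (2454 in DMSO and 5654 in C646). Ribosomal protein genes have many near-identical pseudogene copies, so which copy a row reads is uncertain.

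Cell cycle genes moved by less than 1.5-fold with few exceptions, and over all rows 4.17% moved further. Of 45 S phase rows, 36 were above 0 (8215 of 16803 overall) and NASP, a histone chaperone, passed 1.5-fold upward, with a median of 0.14. The same rows had a median of -0.41 with ICG-001 over the same DMSO column, and of -0.71 in DMSO at 96 h over DMSO at 12 h. Of 52 G2/M rows, CDC20, an activator of the anaphase-promoting complex, was higher (4954 in DMSO and 8341 in C646) and NCAPD2, a condensin subunit, was lower (1339 and 796), with a median of -0.07. CCND3 (cyclin D3) was at 1162 in DMSO, 1857 in C646 and 871 in ICG-001. DNA repair rows had a median of 0.16. FANCG and XRCC2 were the 2 of 24 rows past 1.5-fold (0.84 and 0.94), both higher, against 2.62% of all rows. XRCC2 had similar DMSO signals at 96 h in both lines, 892 in HCT116 and 838 in PANC1. Its log2 ratio with C646 in PANC1 at 12 h was 1.08, and what its probe reads was not tested.

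The stress, metabolic and inflammatory lists given in this paragraph held at most 3 changed rows each, and over all rows 4.17% changed. HSPA1B, an inducible heat shock protein, was at 5665 in DMSO, 9247 in C646 and 2223 in ICG-001. The 15 heat shock rows had a median of 0.27, the highest of the 60 lists, against -0.67 with ICG-001. ATF4 target genes had a median of -0.11 with C646 and 1.04 with ICG-001; ATF5 was higher (0.77) and GDF15 lower with C646. Cholesterol synthesis rows had a median of 0.04 with C646 and -0.81 with ICG-001. Of 17 NF-kB rows, BIRC3, NFKBIE and IKBKG were higher (0.77, 0.70 and 0.63), against 2.62% of all rows, and none was lower. The list did not move as a whole, with a median of 0.04, 9 rows above 0 and 8 below. BIRC3 was at 280 in DMSO and 477 in C646, but at 406 in DMSO at 96 h, and against that column its log2 ratio was 0.23. No NRF2 target among 25 rows, no proteasome subunit among 42 and no replication-dependent histone among 23 passed 1.5-fold, against 4.17% of all rows. Of the 60 lists, 19 held no row past 1.5-fold, and their medians ran from -0.29 to 0.27, against -0.01 over all rows.

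**Figure D3:**
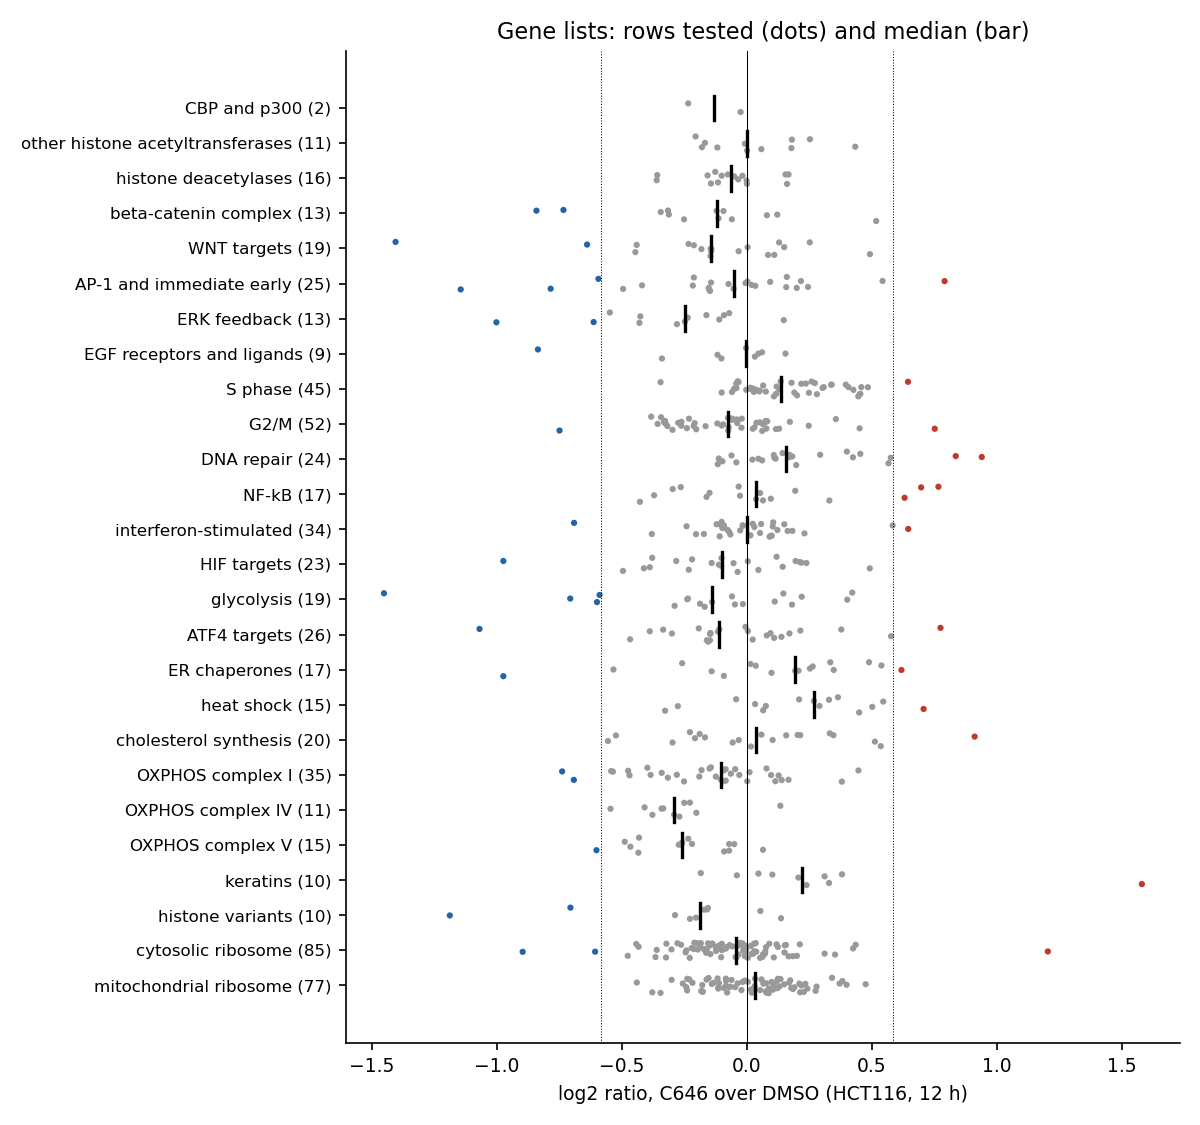
Each dot is a gene row of the list named at the left (rows tested in parentheses), placed at its log2 ratio of C646 over DMSO at 12 h in HCT116, and the black bar is the list's median. Rows past 1.5-fold (dotted lines) are red or blue; the medians of OXPHOS complexes IV and V lie at -0.29 and -0.26 and that of the heat shock list at 0.27.

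The rises fell into different kinds when the rows were set beside PANC1, whose limits were 138 in DMSO and 136 in C646. For some rows PANC1 had little or no signal. KRT6A, a keratin of stressed and wounded squamous epithelium, was at 157 in DMSO and 469 in C646, while ICG-001 at 12 h gave 166 and the 3 columns at 96 h gave 133 in DMSO, 159 in C646 and 120 in ICG-001. It was thus high in a single HCT116 column. SLC16A9, a monocarboxylate transporter family member, was at 389 and 805 at 12 h and at 316 and 320 at 96 h. ANXA10, chosen after its values were seen, was at 1844 in DMSO, 3772 in C646 and 2302 in ICG-001. In PANC1 these 3 rows were under the limit, so no response could be measured there.

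Other rows were dim in PANC1 but above its limit. WFDC21P (the row LOC645638) was at 169 in DMSO, 522 in C646 and 923 in ICG-001, and in PANC1 at 234 in DMSO and 230 in C646. CPA4, chosen after its values were seen, was at 210, 437 and 763, and in PANC1 at 167 and 163. F3, which encodes tissue factor, was at 278 in DMSO, 446 in C646 and 759 in ICG-001, and in PANC1 at 166 and 145. Its signal in DMSO at 96 h was 387, and against that column its log2 ratio was 0.21. TAGLN (transgelin, an actin-binding protein) was at 258 in DMSO, 487 in C646 and 654 in ICG-001, and in PANC1 at 151 and 175, a log2 ratio of 0.21. None of the 4 passed 1.5-fold in PANC1, and whether the lines differed was not tested.

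A further set of rises had similar signals and similar rises in both lines. USP49, a deubiquitinase, was at 958 in DMSO and 2747 in C646 in HCT116, and at 1098 and 3170 in PANC1. C2orf69 was at 2462 and 6736 in HCT116 and at 2910 and 7477 in PANC1, ZNF682 at 798 and 2132 and at 868 and 2301, and ALPP, the placental alkaline phosphatase, at 1969 and 5044 and at 2388 and 6315. Genes known from other tissues were also among the rises. NLRP8, known from oocytes, was at 825 and 2159, and at 858 and 2789 in PANC1, with log2 ratios of 1.39 and 1.70. The other 4 given here, AIRE, DMC1, LEP and IL10, were chosen after their values were seen. AIRE, known from the thymus, was at 1246 and 2845, and at 1297 and 3145 in PANC1. DMC1, a meiotic recombinase, was at 1745 and 4214, and at 2095 and 5493 in PANC1. LEP, the fat cell hormone leptin, was at 297 and 685, and at 271 and 692 in PANC1. IL10, an immune cytokine, was at 1456 and 2763, and at 1598 and 3806 in PANC1, with log2 ratios of 0.92 and 1.25. In all 5 the DMSO signals of the lines lay closer together than the DMSO and C646 signals of either line. Among rows with no RefSeq gene, LOC100132761 was at 140 in DMSO, under the limit, and 693 in C646, so it was at least 4.82-fold higher, and ICG-001 gave 676.

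The evenness between lines was measured with the DMSO 96 h columns, which the comparison did not use, over rows at least 2 times above the limit there. The lines were normalized apart, so their levels are set side by side only roughly. Of 115 such rows that were higher at least 2-fold, 100 (87.0%) had HCT116 and PANC1 signals within 1.25-fold of each other, against 120 of 227 (52.9%) of those higher 1.5- to 2-fold, 61 of 253 (24.1%) of the lower rows and 2900 of 7670 (37.8%) of all rows tested. The median difference between lines, on the log2 scale, was 0.14 for rows higher at least 2-fold and 0.72 for lower rows. The rows higher at least 2-fold had a median log2 ratio of 1.35 with C646 in PANC1 at 12 h, of 0.71 with C646 in HCT116 at 96 h, and of 0.41 in DMSO at 96 h over DMSO at 12 h, where no drug was given. Over all rows of the same brightness these medians were -0.02, -0.02 and 0.03. The ratio of the DMSO columns is not independent of how the rows were picked. Both divide by the DMSO 12 h column, so a low reading there would raise both. What these probes read was not tested. Of 3 ribosomal RNA rows tested, 2 were higher and 1, the 5S row RN5S9, was lower (-0.74). The 2 higher rows were chosen after their values were seen. The 18S row LOC100008588 was at 583 in DMSO and 983 in C646, with a log2 ratio of 0.75 in HCT116 and 2.97 in PANC1, and the 28S row LOC100008589 was at 399 and 623, with 0.64 and 1.93. Their part in the other rises was not tested. Without the rows that were within 1.25-fold between the lines, whatever their brightness, 154 of 7282 rows were higher and 195 lower, an alternative chosen after seeing the data.

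**Figure D4:**
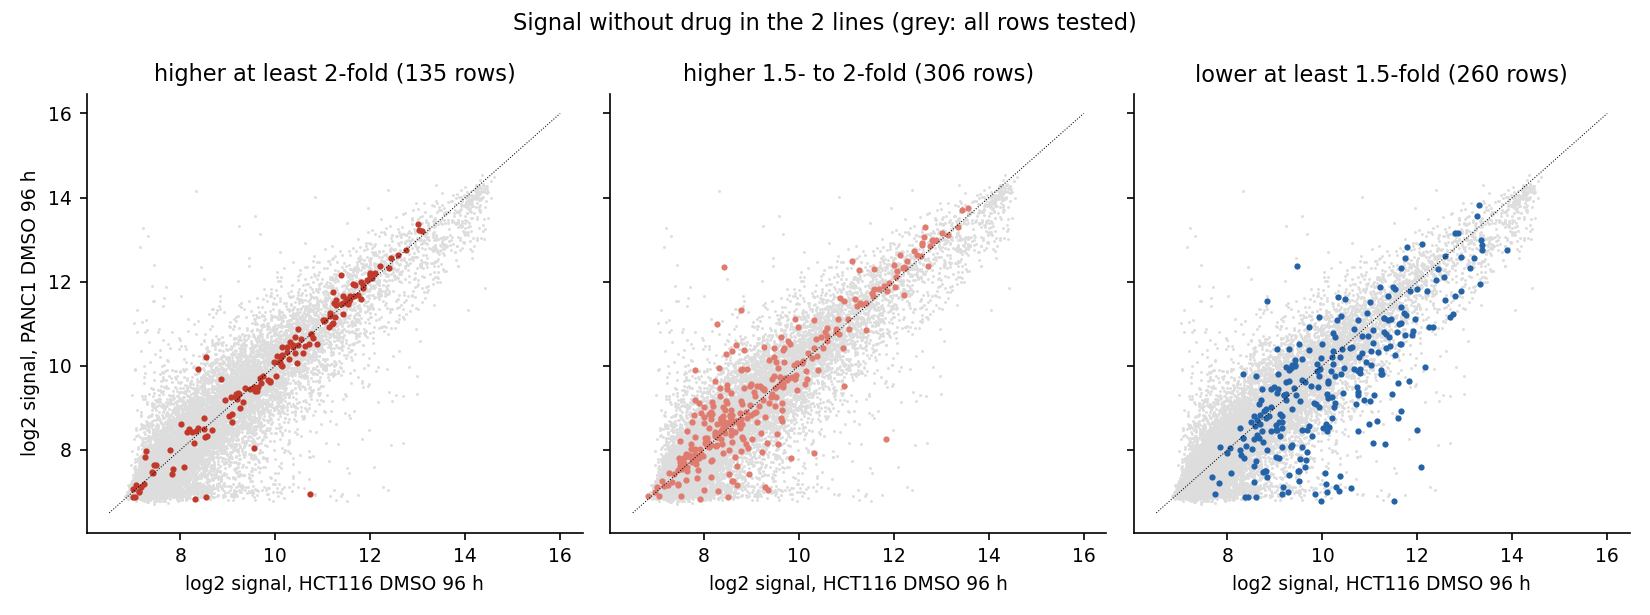
Log2 signal in PANC1 (upward) against HCT116 (across) after 96 h of DMSO, with all 16803 rows tested in grey and the equal-signal line dotted. The 135 rows higher at least 2-fold with C646 at 12 h in HCT116 (left) lie along the line, the 306 rows higher 1.5- to 2-fold (middle) partly so, and the 260 lower rows (right) scatter widely.

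Rows that stand for the same gene gave a further measure. There were 264 genes with several rows tested, and the median spread of their log2 ratios was 0.17. For 23 of these genes at least 1 row passed 1.5-fold, and for 2 of them all rows did. Both of these, UBA1 and TRIOBP, were lower. The rows UBE1 and UBA1, both for the ubiquitin-activating enzyme, were at 1117 and 3073 in DMSO and at 684 and 1968 in C646. None of the 14 genes with a higher row had all rows higher, and the median of their lowest rows was 0.14. In 5 of the 14 (C1orf222, ZRSR2, RAX2, ERAP2 and C21orf124) that lowest row had a DMSO signal of 144 to 148, close to the limit, where ratios are compressed. The lowest rows LOC442582, KENAE, RCP9 and PIP4K2B were also dim, at 153 to 186. Among the brighter lowest rows, NOP16 (0.57), RBM14 (0.52), WASH1 (0.49) and C12orf31 (0.37) rose by less than 1.5-fold, and C2orf56 was flat (-0.0009). Of the 9 genes with a lower row, 7 also had a row that did not pass 1.5-fold, and the median of the highest rows was -0.25. The row TMEM137, whose current gene is RBM14, had a log2 ratio of 1.80 while the row RBM14 had 0.52. CRCP and PIP5K2B (PIP4K2B) had 1 row each at 1.23 and 1.19, beside the dim rows RCP9 and PIP4K2B. Rows named in this paragraph other than TRIOBP, TMEM137 and those of the NBPF family were chosen after their values were seen. The NBPF20, NBPF8 and NBPF10 rows (2.32, 2.11 and 1.46) belong to a family of near-identical copies on chromosome 1, so the copy each row reads is uncertain. Zinc finger genes held 22 higher and 2 lower of 337 rows (6.53% higher, against 2.62% of all rows), and 15 of the 16 bright ones among the 22 were within 1.25-fold between lines.

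By gene type, 291 of 11753 protein-coding rows were higher (2.48%) and 184 lower (1.57%), close to the 2.62% and 1.55% of all rows. Of 3355 rows with no RefSeq gene, 95 were higher (2.83%) and 26 lower (0.775%). Rows of the plain pseudogene type were lower in 37 of 809 rows (4.57%), against 1.55% of all rows, and higher in 19 (2.35%). Among the protein-coding rows, 15.2% of the lower and 12.4% of the higher lay on chromosome 19, against 7.37% of those tested. Their median gene length was 21931 bases for the lower, 23646 for the higher and 28985 for all tested.

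At 96 h C646 was set against its own DMSO column, so this comparison shares no column with that at 12 h. There, 1.92% of 16663 rows were higher and 1.24% lower. Of the 440 higher rows that could be followed, 214 (48.6%) were higher again at 96 h, all 440 had a ratio above 0, and the median log2 ratio was 0.58. Of the 260 lower rows, 115 (44.2%) were lower again, and the median was -0.55. Among the lower rows, MIR1974 (-1.57 and -2.42), RPL7P59 (the row LOC643308, -1.16 and -1.63) and PPP1R10 (-1.11 and -1.24) had a larger fall at 96 h. Others were back within 1.1-fold of DMSO, as were 17 lower and 9 higher rows in all. GLRX was at 3642 in DMSO and 3545 in C646, TJP3 (a tight junction protein, 499 and 262 at 12 h) at 1091 and 1111, and TRIOBP (862 and 425 at 12 h) at 848 and 829. SERPINB1, a protease inhibitor, went from 916 and 506 at 12 h to 1665 and 1763. In each of these the 12 h pair lay well apart and the 96 h pair close together. The DMSO signal itself was higher at 96 h than at 12 h for GLRX, TJP3 and SERPINB1, and the part of that shift in the lost difference was not tested.

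In PANC1 at 12 h, which also shares no column with HCT116, 4.02% of 17388 rows were higher and 2.71% lower. Of the 429 higher rows above the limit there, 311 (72.5%) were higher in PANC1 as well, with a median log2 ratio of 0.92. Of the 249 lower rows, 112 (45.0%) were lower in PANC1, with a median of -0.54. Rows lower with C646 at 12 h in both lines and at 96 h in HCT116 numbered 66, and SOX9, MSN, H2AX, RPL7P59 and PPP1R10 led them. Such rows on the higher side numbered 180, with NBPF20 and NBPF8 in front. YWHAE, a 14-3-3 adaptor protein, was at 1247 in DMSO and 747 in C646 in HCT116 and at 1751 and 607 in PANC1. By contrast SLC2A3, UCA1, CYP24A1, EHF and HBE1 had PANC1 signals between 109 and 161 in both columns, at or near the limit, so their response could not be measured there.

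**Figure D5:**
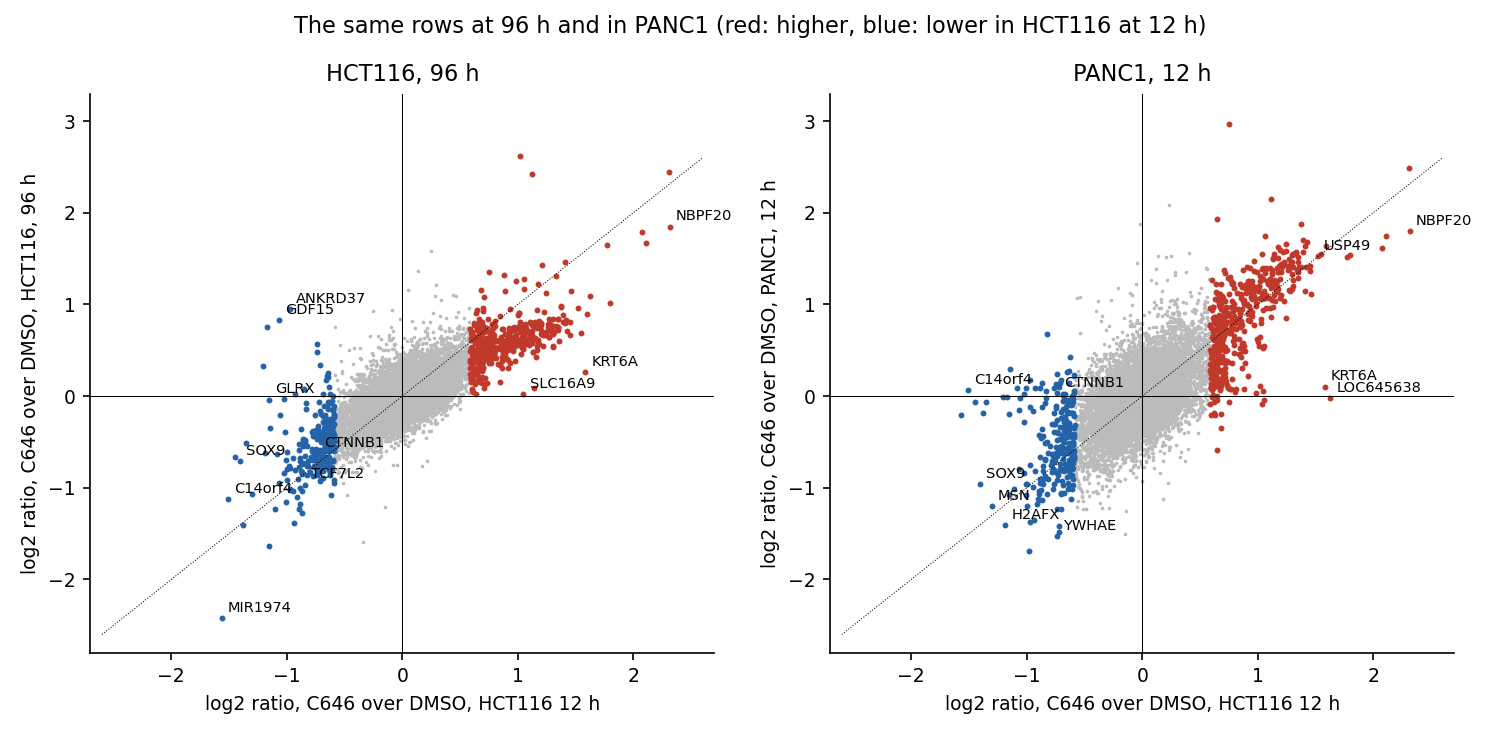
Log2 ratio of C646 over DMSO at 12 h in HCT116 (across) against the same ratio at 96 h in HCT116 (left, upward) and at 12 h in PANC1 (right, upward) for the 16803 rows tested, with the higher rows in red, the lower in blue and the line of equality dotted. At 96 h the higher rows have a median of 0.58, in PANC1 of 0.92, and KRT6A, LOC645638 and C14orf4 lie near 0 in PANC1.

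C646 and ICG-001 at 12 h share the DMSO column, so their ratios are given side by side and their likeness is not counted. Direct ratios of the C646 over the ICG-001 column put 6.32% of 16942 rows past 1.5-fold, and ICG-001 over DMSO put 9.07% of 16863 rows past it. Of the 441 higher rows, 58 were also at least 1.5-fold above ICG-001, and of the 260 lower rows 44 were also at least 1.5-fold below it; both ratios hold the C646 column. Ranked by the ratio over DMSO, SLC2A3 (-1.85 against ICG-001), IRF2BPL (-1.05), DHRS3 (-0.89), a retinal reductase, and UCA1 (-0.75) were among the 6 largest of these falls, and TMEM137 (1.15) and KRT6A (1.49) among the rises. Against ICG-001 itself GDF15 (-2.81), EREG (-1.62) and EGR1 (-1.50) lay further down than IRF2BPL, DHRS3 and UCA1. In 7 rows the drugs moved at least 1.5-fold in opposite directions. GDF15, a stress-induced hormone, was at 2607 in DMSO, 1242 in C646 and 8740 in ICG-001. EREG was at 906, 507 and 1555. TSC22D1, a leucine zipper protein induced by TGF-β, was at 2602, 1674 and 4389. The noncoding host transcripts ZFAS1 (the row C20orf199) and SNHG5 (the row C6orf160) were at 4463, 2790 and 7830 and at 4449, 2927 and 8438. A second row for SNHG5 was at 4553 in DMSO and 3743 in C646 (-0.28), and with 1 row per gene SNHG5 did not pass 1.5-fold (-0.44). RN5S9, a 5S ribosomal RNA row, was at 821, 492 and 1451, and its 96 h pair lay the other way, 395 in DMSO and 586 in C646. HSPA1B was the only one of the 7 that was higher with C646 and lower with ICG-001.

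Promoter sequence was looked at because CBP takes its name from CREB, a factor that binds the palindrome TGACGTCA. RefSeq promoters of GRCh38.p14, from 250 bases before to 50 bases after the first listed start of each gene, were matched for 255 of the 346 RefSeq genes on the higher side, 154 of 232 on the lower side and 9666 of 13183 tested. TGACGTCA stood, on either strand, in 4.55% of the promoters of lower genes, 3.53% of those of higher genes, 3.36% of those tested and 1.98% of all 27305 RefSeq promoters. The promoters of IRF2BPL and EPHA2, which were lower, and of DDX51, an RNA helicase whose row was higher (1021 in DMSO and 2599 in C646), are printed because each holds the full palindrome. The DDX51 row had similar DMSO signals at 96 h in both lines, 1220 in HCT116 and 1396 in PANC1, and what it reads was not tested. The strand is minus for all 3, letters run 5′ to 3′ in the sense of the gene, and capitals mark TGACGTCA and GGGCGG or its complement CCGCCC.
IRF2BPL promoter, chr14:77028659-77028958: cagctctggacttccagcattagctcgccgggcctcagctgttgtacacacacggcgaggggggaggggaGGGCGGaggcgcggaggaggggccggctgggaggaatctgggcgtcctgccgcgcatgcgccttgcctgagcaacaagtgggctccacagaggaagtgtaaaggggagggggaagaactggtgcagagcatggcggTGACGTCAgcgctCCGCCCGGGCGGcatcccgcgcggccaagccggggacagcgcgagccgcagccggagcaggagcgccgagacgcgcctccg
EPHA2 promoter, chr1:16156020-16156319: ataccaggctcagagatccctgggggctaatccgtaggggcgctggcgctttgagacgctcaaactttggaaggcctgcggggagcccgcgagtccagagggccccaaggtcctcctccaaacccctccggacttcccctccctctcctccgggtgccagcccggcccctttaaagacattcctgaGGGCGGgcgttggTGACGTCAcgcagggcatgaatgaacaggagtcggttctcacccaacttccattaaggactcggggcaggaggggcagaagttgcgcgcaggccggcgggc
DDX51 promoter, chr12:132144270-132144569: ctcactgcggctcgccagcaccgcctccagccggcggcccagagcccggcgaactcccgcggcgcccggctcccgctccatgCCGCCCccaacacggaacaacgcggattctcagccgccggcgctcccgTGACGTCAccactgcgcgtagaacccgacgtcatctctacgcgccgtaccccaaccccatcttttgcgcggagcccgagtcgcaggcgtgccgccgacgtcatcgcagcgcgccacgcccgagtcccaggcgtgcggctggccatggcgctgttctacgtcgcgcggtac

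In these windows TGACGTCA starts at base 207 in IRF2BPL, 200 in EPHA2 and 131 in DDX51, counted from the first base printed. The SP1-type box GGGCGG stood in 75.3% of the promoters of lower genes, 68.2% of those of higher genes and 69.9% of those tested. The AP-1 sequence TGACTCA stood in 1.95%, 6.67% and 3.08%. CTTTGAT, the core of a TCF/LEF site, was in none of the 154 promoters of lower genes, in 3.14% of those of higher genes and in 1.44% of those tested. TATAAA was in 6.49%, 6.27% and 5.73%, CCAAT in 41.6%, 42.0% and 37.2%, the E-box CACGTG in 12.3%, 9.02% and 10.3%, and the E2F sequence TTTCGCGC in 0.649%, 0.392% and 1.09%. The median GC content of the promoters was 66.2% for lower genes, 64.7% for higher genes and 65.3% for those tested. These shares are descriptions of short windows and no factor's binding was measured.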

How the data were processed

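The authors amplified and labelled RNA from total RNA and hybridized it to Illumina HumanHT-12 v4 BeadChips. They exported signals from GenomeStudio with quantile normalization and no background subtraction. They averaged the replicate arrays of each condition, 2 for every column used here, so the deposited table holds 12 columns of linear signal intensity with no SD. The number of arrays limits the precision. The single arrays were not analysed here, and no test was possible with 1 column per group.

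Intensities were taken to log2. A row was kept when above the limit in the C646 or the DMSO column, the limit being the peak of that column's log2 signals (Gaussian kernel over values under 8) plus 2.33 SD, the SD taken from values below the peak. Calls used 1.5-fold. Row names were matched to RefSeq (GRCh38.p14) by current symbol, by an older symbol of 1 gene, or by LOC identifier, which placed 23729 of 34687 rows. The comparison, gene lists and settings were chosen with earlier results of these data known. Rows named in the text were a fixed set around CBP, p300 and β-catenin, the 15 largest rises and falls with a RefSeq name, the 5 largest of the other rows, up to 4 rows each way per list, and the 6 largest that were shared with 96 h and PANC1, back within 1.1-fold at 96 h, or past 1.5-fold against ICG-001 too, plus all rows that the drugs moved in opposite directions. Marker rows and the rows next to the limit were named too, and other names are marked as chosen after seeing values. Promoters were searched for 8 motifs on both strands, and overlapping matches of different motifs were counted for each. The count rule was tested on simulated data with the noise of background rows and 2-fold changes in bright rows only. That setting checks the code and not how often real rows pass 1.5-fold without a change. Python 3.11.15, numpy 2.4.6, scipy 1.17.1, pandas 2.3.3, matplotlib 3.10.9 and, for normexp, R 4.3.3 with limma 3.58.1 were used. Alternatives tried were other folds, other limits, normexp, centring, quantile normalization over all columns, another control column, 1 row per gene, and rows that were uneven between lines. A few rows that were named and 1 gene list are not reported here.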

Additional observations from a re-analysis of the deposited data

Results flagged for a closer look

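Rows at least 1.5-fold lower or higher with C646 at 12 h in HCT116 and at least 1.5-fold the other way in a second comparison were picked out. The difference between the comparisons was not tested, since each rests on single columns. DHRS3 had a log2 ratio of -1.17 at 12 h and 0.76 at 96 h in HCT116, a difference of 1.93; its signals were 889 in DMSO and 394 in C646 at 12 h, and 655 and 1105 at 96 h. GDF15 went from -1.07 at 12 h to 0.83 at 96 h (difference 1.89), and ANKRD37, a gene induced by low oxygen, from -0.97 to 0.95 (difference 1.92), with 996 and 507 at 12 h and 2137 and 4124 at 96 h. Between the lines at 12 h, RAB26, a vesicle GTPase, was at -0.83 in HCT116 and 0.67 in PANC1 (difference 1.501), with 404 and 228 in HCT116 and 309 and 493 in PANC1. CD68, a lysosomal glycoprotein, was at 0.64 in HCT116 and -0.59 in PANC1 (difference -1.24). No group held enough samples for a check of single outlying samples.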

How the results depend on the processing

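The count of changed rows followed the fold and the control. At a fold of 1.2 it was 3697 (1798 higher, 1899 lower), and at 2-fold 160 (135 and 25). Normexp with quantile normalization within the line, which removes background and widens the ratios of dim rows, gave 1984 (1081 and 903). With the DMSO 96 h column as control the count was 1963 (995 and 968), and 336 of the 441 higher and 209 of the 260 lower rows were past 1.5-fold the same way; RN5S9 reversed to 0.32. Without rows even between the lines it was 349 (154 and 195). No filter, a limit at 5 SD, a signal above the limit in both columns, centring, quantile normalization over all columns and 1 row per gene gave 685 to 726. Of 123 named rows past 1.5-fold, 106 stayed past it with the DMSO 96 h control, among the exceptions H2AFX (-0.34), CTNNB1 (-0.57), S100A4 (-0.50) and EREG (-0.52). With quantile normalization over all columns 117 stayed, S100A4 (-0.55) and C6orf160 (-0.584) being among those lost. Of 64 list medians, 40 moved by more than the background SD of 0.07 with the DMSO 96 h control and 14 with normexp. With that control the S phase median was 0.87, heat shock 0.57, DNA repair 0.53, ERK feedback -0.51, immediate early -0.47, β-catenin and partners -0.41, glycolysis -0.39 and complexes IV and V -0.35 and -0.14, and ATF4 targets went from -0.11 to 0.11. No paired analysis was possible because each condition is 1 averaged column. No replicate could be left out for the same reason. Signal near the limit restricts dim rows: log2 ratios keep background in, and so understate their changes.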
